A study of Mus musculus with 12 samples.

Results

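The clustered histone genes encode the core histones H2A, H2B, H3 and H4 and the linker histone H1 that package newly copied DNA. Members were taken by name alone, as every row of the deposited table whose symbol begins with Hist1h, Hist2h, Hist3h or Hist4h, which gave 68 of 24421 genes. They were 6 H1, 18 H2a, 19 H2b, 12 H3 and 13 H4 genes. In all, 54 carried a Hist1, 10 a Hist2, 3 a Hist3 and 1 a Hist4 symbol. All 68 were found in the GENCODE M21 annotation of GRCm38, the build of mm10, with the Hist1 genes on chromosome 13, the Hist2 genes on chromosome 3, the Hist3 genes on chromosome 11 and Hist4h4 on chromosome 6.

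RNA came from cerebellum of Aldh1l1-GFP mice of 4 postnatal ages, named P1, P7, P14 and P28 after the day, with 3 libraries per age and 12 in all. In these mice the promoter of Aldh1l1, a folate enzyme of astrocytes, drives green fluorescent protein (GFP), and dissociated cells were sorted for GFP, so the libraries hold whatever cells were GFP-positive at each age. All groups shared this genotype, the C57/BL6J background and the absence of any treatment, mice of both sexes were used in the study, and the labels name polyA RNA as the molecule, whereas the study's methods give total RNA as the input of the library kit. Whether messages without a poly(A) tail entered the libraries is not settled by these sources, so a member's level may count all of its messages or mainly polyadenylated ones. The names of all 12 deposited columns read P28, also those of younger mice, and the ages used here are those of the sample titles, to which the submitters' descriptions tie each column. The sources used here do not tie libraries to single animals, so that p-values measure the spread between libraries, which may be technical in part.

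Most members are replication-dependent genes, which are transcribed while a cell copies its DNA and shut off again afterwards. Their messages lack introns and end in a short stem-loop instead of a poly(A) tail, and the stem-loop binding protein SLBP holds that hairpin through processing, translation and decay. A smaller number of histone genes can also give messages that are cut and polyadenylated further downstream, and these can be made in cells that no longer divide. In the cerebellum the first postnatal weeks are a time of heavy proliferation of granule neuron precursors and of glia.

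The hairpin was looked for in the annotated transcripts, on the sense strand within 200 bases after the stop codon. It was found in 46 members, beginning 22 to 59 bases after the stop. In 17 members the annotated transcript had under 75 bases after the stop codon, too few to tell, 1 (Hist3h2bb-ps) is a pseudogene without a coding sequence, and 4 had longer ends without the hairpin. Those 4 were Hist1h2bc, Hist1h2bq, Hist1h2br and Hist2h2be. The forms below, from the GENCODE transcripts, are shown because they carry this family mark and because the most abundant H4 gene differs from the other types in its stem. Capitals mark both arms of the stem and lower case the loop.
Hist1h2bg (chr13:23571843-23571858, plus strand), and 25 other members: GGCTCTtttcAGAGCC
Hist1h2bk (chr13:22036300-22036315, plus strand), and 5 other members: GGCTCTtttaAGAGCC
Hist1h4d (chr13:23581950-23581965, plus strand), and 6 other members, all H4: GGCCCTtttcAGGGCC
Hist1h4b (chr13:23757366-23757381, plus strand), and Hist1h4j: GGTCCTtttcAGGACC
Hist1h3g (chr13:23535889-23535904, plus strand): GGCTCTtcttAGAGCC

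Promoter sequences from RefSeq (GRCm38.p6, 250 bases before to 50 after each start) were matched for 62 of the 68 members and searched on both strands for the octamer ATTTGCAT, which is bound by POU-domain factors such as OCT1 (Pou2f1), for the TATA box TATAAA and for the box CCAAT. The octamer was in 22.6% of the members' promoters and in 1.74% of all 32851 promoters of the table. It was found in 7 of 16 H2b and 7 of 18 H2a promoters and in none of the H1, H3 and H4 promoters. Windows of facing H2a and H2b genes can overlap, so a single site can count for both genes. The octamer between Hist1h2ae and Hist1h2bg, for example, lies within 250 bases of both starts. TATAAA was in 56.5% of the members' promoters against 13.6% of all, and CCAAT in 85.5% against 37.4%. The H4 promoters stood apart in the latter, with 3 of 12 holding CCAAT, whereas every H1, H2a, H2b and H3 promoter matched held it. Such matches describe letters in a window and not bound sites. The windows below show an H2b promoter with the octamer, an H1 and an H4 promoter without it, and the 175 bases between the facing starts of Hist1h2ae and Hist1h2bg, a pair whose levels are described further on. Capitals mark octamer, TATA and CCAAT matches on either strand.
Hist1h2bk (chr13:22035701-22035840, plus strand): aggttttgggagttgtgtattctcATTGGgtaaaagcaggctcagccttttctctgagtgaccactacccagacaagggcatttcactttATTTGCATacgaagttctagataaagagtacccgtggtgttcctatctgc
Hist1h1a (chr13:23763548-23763687, plus strand): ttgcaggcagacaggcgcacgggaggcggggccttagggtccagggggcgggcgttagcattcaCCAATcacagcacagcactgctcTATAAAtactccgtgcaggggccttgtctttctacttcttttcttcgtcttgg
Hist1h4d (chr13:23581448-23581587, plus strand): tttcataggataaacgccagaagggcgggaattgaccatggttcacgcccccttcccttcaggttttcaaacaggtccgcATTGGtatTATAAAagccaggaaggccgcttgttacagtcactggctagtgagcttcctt
Between Hist1h2ae and Hist1h2bg (chr13:23571221-23571395, plus strand): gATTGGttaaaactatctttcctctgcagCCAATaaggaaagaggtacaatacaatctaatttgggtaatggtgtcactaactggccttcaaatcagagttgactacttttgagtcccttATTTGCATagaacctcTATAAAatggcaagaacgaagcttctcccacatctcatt

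Depth was 6399499 to 14733985 reads on genes per library. Levels are given in normalized counts, which are the reads of a gene divided by one size factor per library by the authors, and they are not corrected for gene length. Of the 68 members, 8 had no read in any library, and of all stretches of 75 bases in their transcripts (windows, below), a median of 9.16% and at most 37.4% occur in no other gene. These 8 were Hist1h2ap, Hist1h2bq, Hist1h2br, Hist1h4m, Hist2h2aa1, Hist2h2aa2, Hist2h3c1 and Hist2h3c2. A further 4 (Hist1h1t, Hist1h2aa, Hist1h2ao and Hist4h4) had reads but did not reach a value of 10 in 3 libraries. Of these, the testis linker histone gene Hist1h1t had at most 18.0 normalized counts in any library and no read at P28. The other 56 members passed this filter and were tested among 15464 genes, and each of them reached 10 in libraries of at least 2 ages. Of these 56, 19 had under 50% of windows of their own, and values of near-identical members are uncertain because how the authors placed shared reads is not stated in the sources used here.

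The clustered histone genes took 0.144% to 0.149% of all reads on genes in the P1 libraries, 0.288% to 0.373% in those of P7, 0.0474% to 0.0790% in those of P14 and 0.0454% to 0.0694% in those of P28. Summed over all 68 members, the P1 libraries held 13401, 13154 and 12921 normalized counts, the P7 libraries 24971, 25559 and 32721, the P14 libraries 7443, 4942 and 8121, and the P28 libraries 5281, 8405 and 8599. The P7 libraries thus stood above those of every other age and the P1 libraries above those of P14 and P28, while P14 and P28 overlapped. With 3 libraries against 3, an exact permutation test of a single sum cannot go below a two-sided p of 0.1, so the sums were not tested. In RNA from sorted cells in bulk, fewer cells of a type and less RNA per cell cannot be told apart.

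By type, the sum of the H2a genes was 2368 ± 199 (SD, n = 3, P1), 5523 ± 754 (P7), 817 ± 160 (P14) and 437 ± 202 (P28). The H1 sum was 3702 ± 457, 4360 ± 671, 909 ± 193 and 454 ± 245 at the 4 ages, and its P1 and P7 libraries overlapped. The H3 sum was 1529 ± 323, 2961 ± 568, 589 ± 320 and 294 ± 104. The H2b and H4 sums had higher means at P28 than at P14, with overlapping libraries. The H2b sum was 3867 ± 418 (P1), 11198 ± 1840 (P7), 3399 ± 748 (P14) and 5021 ± 1168 (P28), and the H4 sum was 1693 ± 151, 3708 ± 742, 1121 ± 455 and 1223 ± 298. As a share of the members' counts, H2b made up 29.4% ± 3.71 (P1), 40.3% ± 0.391 (P7), 49.96% ± 1.70 (P14) and 67.8% ± 1.89 (P28), with no overlap between any neighbouring ages, while H1 went from 28.1% ± 3.28 at P1 to 5.80% ± 2.11 at P28.

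**Figure D1:**
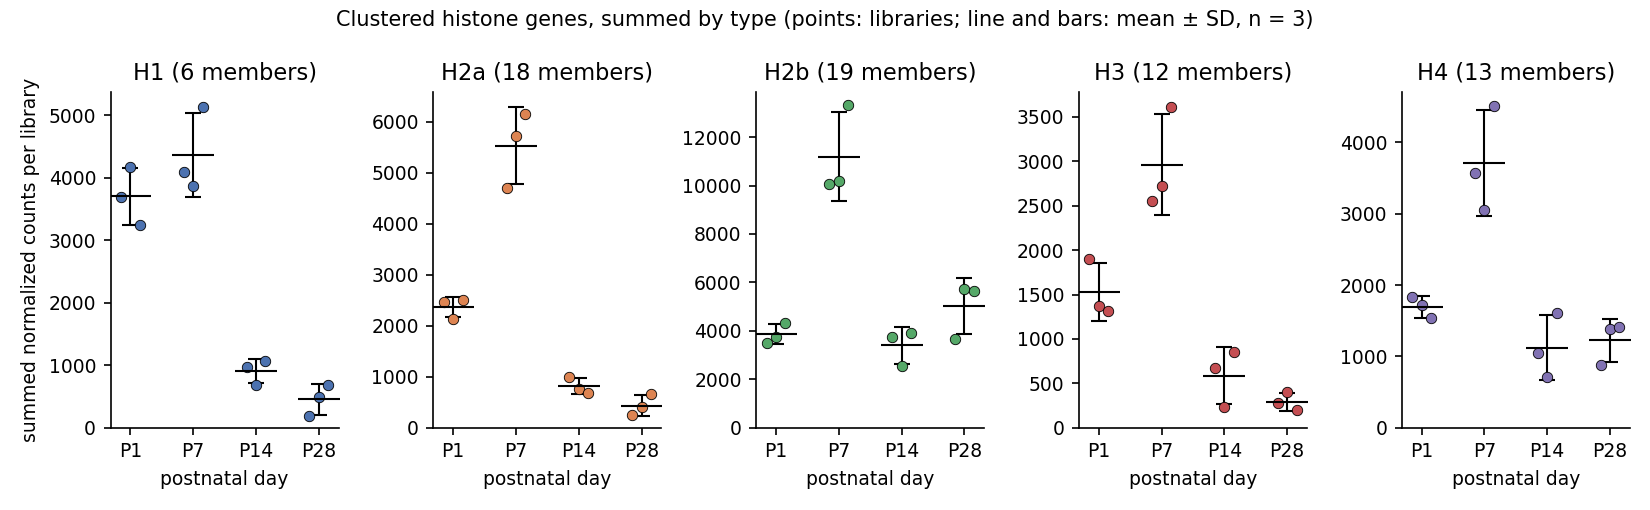
Summed normalized counts (vertical axis, starting at 0, a different scale in each panel) of the H1, H2a, H2b, H3 and H4 genes at P1, P7, P14 and P28. Points are the 3 libraries of an age, and the line and bars are their mean ± SD. In every panel the highest mean is that of P7, and the H2b mean is higher at P28 (5021) than at P14 (3399).

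The first comparison, P7 with P1, asks how the members stood before and at the peak of their sum. By the call rule used throughout, a Benjamini-Hochberg adjusted p under 0.05 over all genes in limma with an absolute log2 fold change over 0.75, 3 of the 56 members rose and 0 fell, where 3.1% of all genes tested rose and 3.91% fell. At an unadjusted p under 0.05 (7.27% of all genes lower), in edgeR and in DESeq2 the number of members lower was also 0. At an unadjusted p under 0.05 and the same fold, 22 were higher, against 6.94% of all genes. The sign was shared far more widely than the calls. The mean was higher at P7 for 52 of 56 members, with a median log2 fold change of 1.14 against 0.04 for all genes tested, and for 46 the P7 libraries all lay above the P1 libraries, against 20.1% of all genes.

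Those 3 genes were H2b genes. Hist1h2bk had 624, 476 and 635 normalized counts in the P1 libraries and 2160.1, 2129 and 3066 in the P7 libraries, a log2 fold change of 2.07 (standard error 0.46, adjusted p = 0.013). Hist1h2bn had 233, 150 and 281 counts at P1 and 752, 870.3 and 941 at P7, a log2 fold change of 1.99 (adjusted p = 0.0268). Hist1h2be, named because so few genes passed and outside the rule for named genes, had 319.9, 465 and 385 counts at P1 and 847, 828 and 1091 at P7, a change of 1.25 (adjusted p = 0.0116). In all of them the ages did not overlap. Of the 75-base windows of Hist1h2bk and Hist1h2bn, 27.4% and 27.7% are their own, and the annotated span of Hist1h2be overlaps that of Hist1h1e on the same strand.

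The number of calls at this step rested on single libraries and on the spread assumed. It was 0 without P7 replicate 3, 1 without P1 replicate 1 or P1 replicate 2, 6 without P14 replicate 2, and 12, 9 and 8 without P28 replicate 1, 2 or 3. With only the 6 libraries compared in the fit it was 35, and DESeq2 on the recovered reads called 21. The adjusted p of Hist1h2bk was 0.0629 without P1 replicate 2 and 0.0712 without P7 replicate 3, that of Hist1h2be 0.0655 without P1 replicate 1 and 0.0740 without P7 replicate 3, and that of Hist1h2bn was above 0.05 without any 1 of 5 libraries of these ages, with a highest value of 0.125.

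Among the H2a genes the median change from P1 to P7 was 1.33, among H2b 1.25, among H4 1.11 and among H3 0.94, and for H1 it was 0.23, or 0.029 without P7 replicate 3, 0.14 without P1 replicate 3 and 0.39 without P7 replicate 1. The most abundant H2a gene, Hist1h2ag, had 354, 311 and 353 counts at P1 and 701, 842 and 909 at P7 (log2 fold change 1.26, adjusted p = 0.0803). Hist1h4d, which supplied 60.5% ± 3.75 of the H4 counts at P1 and 59.6% ± 5.44 at P28, had 1062, 1113 and 896 at P1 and 2194, 1718 and 2804 at P7 (log2 fold change 1.11, adjusted p = 0.0583). Both missed the threshold although their ages did not overlap. The H1 genes were split in sign. Hist1h1a and Hist1h1b had means of 54.6 ± 18.9 and 725 ± 216 at P1 and of 176 ± 33.4 and 1715 ± 232 at P7 (adjusted p = 0.32 and 0.475), whereas Hist1h1e, the most abundant H1 gene, had 2181 ± 485 and 1736 ± 399 (adjusted p = 0.74), and Hist1h1c, Hist1h1d and Hist1h1e overlapped between the ages.

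**Figure D2:**
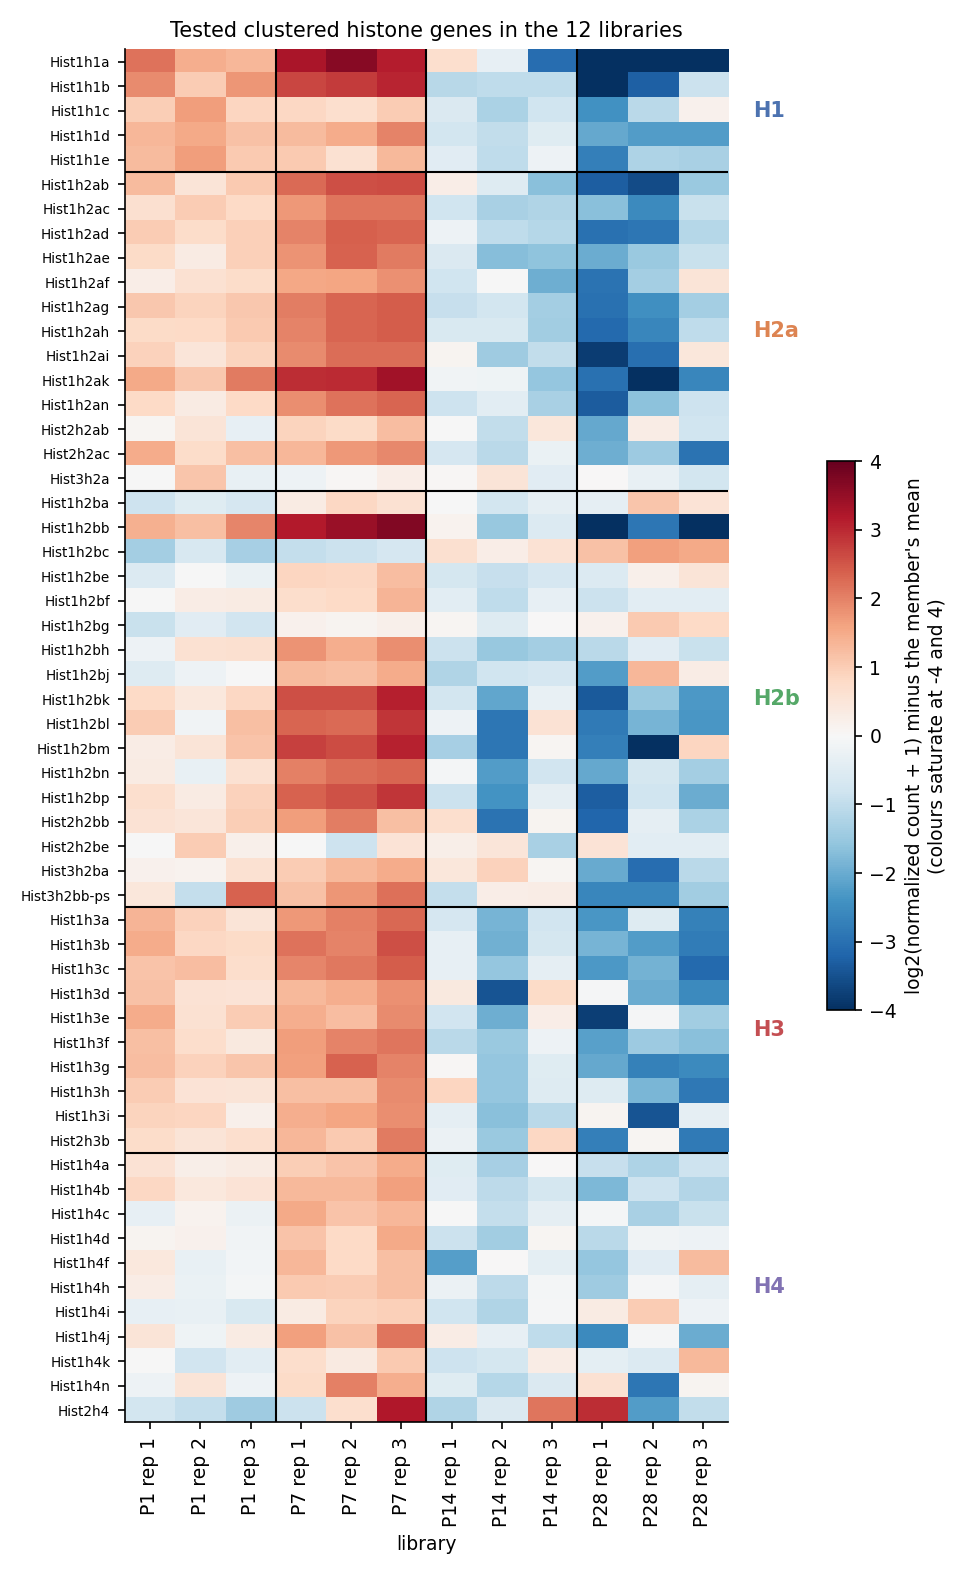
The 56 tested members (rows, grouped by type) in the 12 libraries (columns), as log2(normalized count + 1) minus the member's mean over all libraries, with colours saturating at -4 and 4. For 50 of the 56 members the highest mean is at P7, while Hist1h2bc and Hist1h2bg are highest at P28.

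From P7 to P14 the clustered histone genes fell together. Of 56 members, 39 fell and 1 rose, where 8.79% of all genes tested fell and 10.0% rose. The median log2 fold change was -2.32 against -0.09 for all genes, and for 52 members the P14 libraries all lay below the P7 libraries, against 24.8% of all genes. By type, 5 of 5 tested H1, 11 of 13 H2a, 10 of 17 H2b, 7 of 10 H3 and 6 of 11 H4 genes fell, with medians of -2.29, -3.02, -2.21, -2.65 and -1.81. The comparison shares its P7 libraries with the preceding one, and a high P7 value enters both.

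The largest falls were those of Hist1h1a and of the H2b genes Hist1h2bm and Hist1h2bb. Hist1h1a, a linker histone gene, had 164, 213 and 149.6 counts at P7 and 26.5, 12.7 and 1.09 at P14, and it fell by 4.24 on the log2 scale (standard error 0.87, adjusted p = 0.00292). Hist1h2bm had 1906, 1752 and 2448 counts at P7 and 113, 38.1 and 304 at P14 (log2 fold change -4.18, adjusted p = 0.00661), and Hist1h2bb had 457, 563 and 662 at P7 and 55.1, 16.9 and 33.7 at P14 (log2 fold change -4.09, adjusted p = 0.000873). The ages did not overlap in any of these. Hist1h2bk, which had risen to P7, went to 216, 84.6 and 291 counts (log2 fold change -3.78, adjusted p = 5e-05).

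The most abundant genes of the other types followed. Hist1h2ag had 87.9, 99.4 and 64.1 counts at P14 (log2 fold change -3.29, adjusted p = 5.18e-05) and Hist1h2ak, another H2a gene, fell by 3.72 on the log2 scale (adjusted p = 0.00459). Hist1h3f, the most abundant H3 gene, went from 518, 644 and 718 counts at P7 to 77.3, 58.2 and 140.1 at P14 (log2 fold change -2.84, adjusted p = 0.00017). Hist1h4d went to 546, 378 and 1035 counts (log2 fold change -1.87, adjusted p = 0.00103). Of the H1 genes, Hist1h1b fell by 3.89, Hist1h1d by 2.29 and Hist1h1e by 1.55 on the log2 scale (adjusted p = 0.00373, 0.000286 and 0.00649), and Hist1h1c fell by 1.71 (adjusted p = 0.0331, between 0.00529 and 0.114 with single libraries left out). With at least 50% of windows of their own, 24 of 37 tested members fell.

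The exception was Hist1h2bc, an H2b gene (chr13:23684199-23692908, plus strand). It had 397, 652 and 404 counts (P1), 521, 556 and 638 (P7), 1569.5, 1227 and 1520.4 (P14) and 2267, 3168 and 2894 (P28). Every P14 library lay above every P1 and P7 library, and every P28 library above every P14 library. Its log2 fold change between P1 and P7 was 0.27 (adjusted p = 0.604), followed by 1.33 from P7 to P14 (standard error 0.22, adjusted p = 0.000581), 0.94 from P14 to P28 (adjusted p = 0.0121) and 2.54 from P1 to P28 (adjusted p = 9.94e-07), and the last 3 calls were kept with each library left out. With library totals in place of size factors, the step from P14 to P28 was 0.70, under the fold required. Of its windows, 72.9% are its own.

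From P14 to P28, 9 of 56 members fell and 2 rose, where 8.53% of all genes tested fell and 4.58% rose. The median log2 fold change was -0.76 against -0.12 for all genes. For 11 members the P28 libraries all lay below the P14 libraries and for 3 above, against 14.4% and 11.7% of all genes. The genes that fell were 3 H1, 3 H2a, 2 H2b and 1 H3 gene. At an unadjusted p under 0.05 it was 18 lower and 3 higher, against 16.3% and 7.83% of all genes, and the number lower was 15 in DESeq2 and 11 in edgeR. The medians by type were -1.45 for H1, -1.25 for H2a, -1.12 for H3, -0.33 for H2b and -0.16 for H4. The H2b median ranged from -0.94 (without P14 replicate 2) to 0.11 (without P14 replicate 1) and the H4 median from -0.46 (without P14 replicate 2) to 0.09 (without P28 replicate 2), so that neither kept its sign. The H2a median was -0.62 without P28 replicate 1, and the H3 median -1.86 without P14 replicate 2. With only the 6 libraries compared in the fit none of the 9 genes passed, and without P14 replicate 1 the number was 3.

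The largest fall was that of Hist1h2bb, from the P14 counts above to 0, 5.90 and 1.35 (log2 fold change -3.69, adjusted p = 0.00453). Hist1h2ak had 80.5, 78.3 and 29.3 counts at P14 and 10.2, 0 and 13.5 at P28 (log2 fold change -3.41, adjusted p = 0.014, up to 0.0542 with single libraries left out). Hist1h1a had no read in any P28 library and was at least 3.36-fold lower than at P14 and at least 13.7-fold lower than at P1, counted against a floor of 3 reads in each library, which covers counting error only. Its call from P14 to P28 was lost without P14 replicate 1 or P14 replicate 2 (adjusted p = 0.0252, and 0.102 and 0.0759 without them). Hist1h2ab, the H2a gene next in abundance, had 132, 76.2 and 33.7 counts at P14 and 10.2, 8.26 and 37.9 at P28 (log2 fold change -2.15, adjusted p = 0.0272, up to 0.112 with single libraries left out), and there the ages overlapped. Hist3h2ba, an H2b gene of the Hist3 cluster, had 118, 164 and 91.2 counts at P14 and 20.5, 9.44 and 40.6 at P28 (log2 fold change -2.53, adjusted p = 0.00715). It was set apart from most members by its timing, as its P14 mean of 124 ± 36.8 lay close to its P1 mean of 108 ± 20.4.

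Besides Hist1h2bc, Hist1h2bg (chr13:23571396-23572013, plus strand) passed in the upward direction. It had 285, 392 and 316 counts (P1), 600.3, 572 and 609 (P7), 567, 370.3 and 542 (P14) and 604, 1093 and 922 (P28). The P28 libraries lay above all others except for P7 replicate 3 with 609, which was above P28 replicate 1. From P14 to P28 the log2 fold change was 0.81 (standard error 0.26, adjusted p = 0.0492), a call that was lost with any 1 of 11 libraries left out (highest adjusted p 0.168), while without P28 replicate 1 the number of members that rose was 4. From P1 to P28 it was 1.37 (adjusted p = 0.00096), called with each library left out.

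Over the whole period, P28 with P1, 33 of 56 members fell and 2 rose, where 18.7% of all genes tested fell and 13.3% rose. The median log2 fold change was -2.32 against -0.24 for all genes. The P28 libraries lay below the P1 libraries for 38 members and above them for 4, against 23.9% and 17.9% of all genes. All 5 tested H1 genes fell, as did 10 of 13 H2a, 8 of 17 H2b and 8 of 10 H3 genes, whereas 2 of 11 H4 genes did. The medians were -3.51, -2.89, -1.58, -2.65 and -0.59 in the order H1, H2a, H2b, H3 and H4. The H4 median was -0.33 without P28 replicate 2 and -0.72 without P28 replicate 3. The difference between the types was not tested. The median of H1 was the same with Hist1h1a at its lower bound.

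Of single genes, Hist1h2bb fell by 5.86 on the log2 scale (adjusted p = 2.5e-05), Hist1h2ak by 5.59 (adjusted p = 0.000127) and Hist1h1b by 4.91 (adjusted p = 0.000415). Hist1h1e, which had 2041, 2720.0 and 1780.3 counts at P1, had 127, 367 and 345 at P28 (log2 fold change -3.08, adjusted p = 1.7e-05). Hist1h4d, by contrast, had 472, 887 and 856 counts at P28 against 1062, 1113 and 896 at P1 (log2 fold change -0.52, standard error 0.33, adjusted p = 0.241). Of the other abundant H4 genes, Hist1h4a fell by 1.39 (adjusted p = 0.0193, or 0.0745 without P1 replicate 1), and Hist1h4h had 187 ± 36.9 counts at P1 and 133 ± 58.3 at P28. Among H3 genes Hist1h3b fell by 3.34 (adjusted p = 0.00016) and Hist2h3b by 2.47 (adjusted p = 0.0167, or 0.0550 without P28 replicate 1).

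At P14 and P28 most H2b counts came from Hist1h2bc and Hist1h2bg. Hist1h2bc supplied 12.7% ± 4.17 of the H2b counts (P1), 5.14% ± 0.332 (P7), 43.0% ± 4.81 (P14) and 56.0% ± 5.33 (P28), and Hist1h2bg 8.61% ± 1.63, 5.38% ± 0.721, 14.5% ± 0.610 and 17.3% ± 1.57. Hist1h2bk went the other way, from 21.8% ± 1.11 at P7 to 1.45% ± 0.642 at P28. These are shares of reads, not corrected for the length of the genes. Hist3h2a, an H2a gene of the small Hist3 cluster, kept 58.4, 127 and 47.7 counts at P1 and 59.9, 47.2 and 35.2 at P28, and overlapped between all ages. The pseudogene next to it, Hist3h2bb-ps, never exceeded 30.3 counts in any library.

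**Figure D3:**
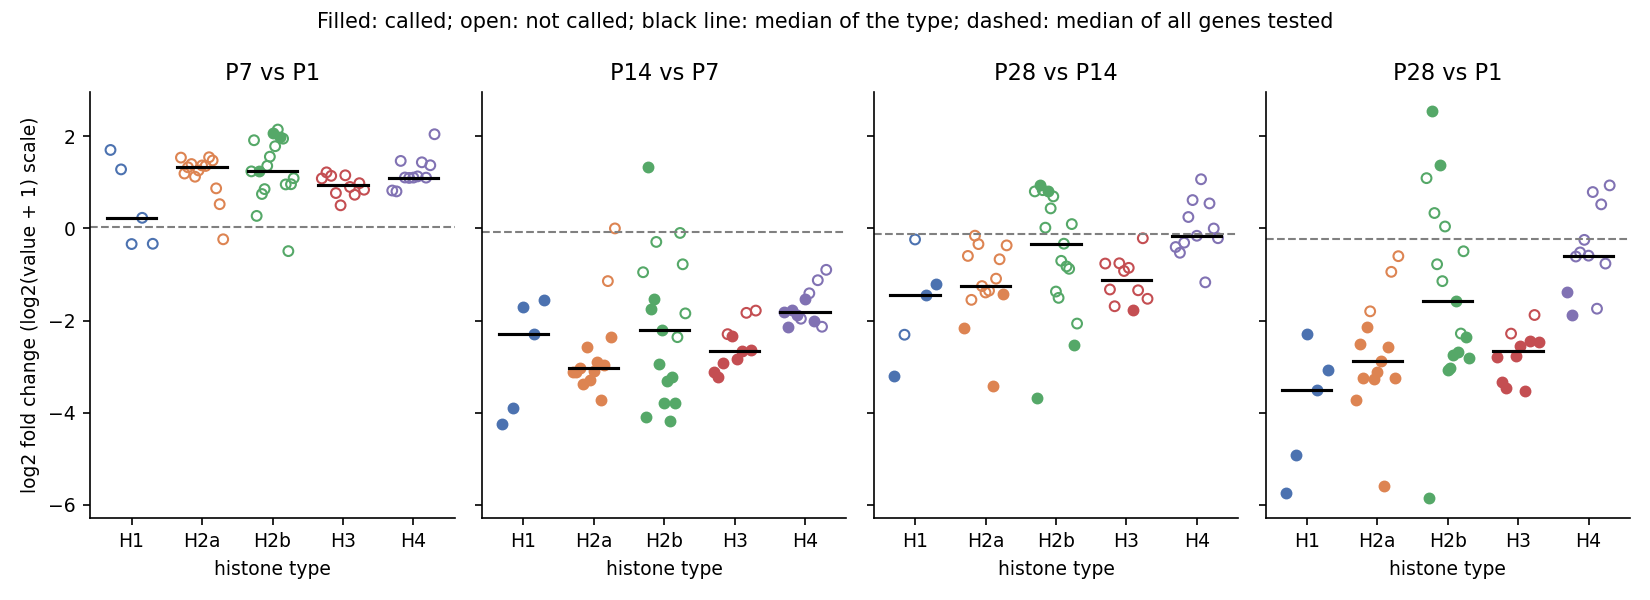
Log2 fold changes of the 56 tested members (vertical axis, on the log2(value + 1) scale) by histone type in the 4 comparisons, filled where called. Black lines are type medians, and the dashed line is the median of all 15464 genes. From P7 to P14 the type medians lie between -3.02 and -1.81, and from P1 to P28 the highest points are Hist1h2bc (2.54) and Hist1h2bg (1.37).

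Many H2a and H2b genes face each other from a shared stretch of DNA. Of the members, 13 pairs of an H2a and an H2b gene had annotated starts on opposite strands within 500 bases, 172 to 305 bases apart (median 250), and no other types were paired in this way. In 10 pairs both genes were tested. The pairs of both H2b genes that rose and of Hist1h2bk are described with the log2 ratio of the H2b to the H2a gene within each library, a description chosen after the members' values had been seen. Over the 10 pairs, this ratio was higher in all P28 than in all P1 libraries in 6, and in 4 the ages overlapped. The 10 include the pair of the pseudogene Hist3h2bb-ps, where the ages overlapped. Of all single genes tested, 17.9% were higher in this way, but no such share was worked out for ratios of other gene pairs. Whether 6 of 10 is more than among other pairs was not tested. The 6 were not only pairs whose H2b gene rose. For Hist1h2bn and Hist1h2ak, which both fell, the ratio was -0.29 ± 0.15 at P1 and 3.72 ± 2.70 at P28. The P28 libraries had ratios of 2.00, 6.84 and 2.32. Hist1h2ak had no read in the library with 6.84, P28 replicate 2, so that value depends on the 1 added to each count.

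The pair of Hist1h2bc and Hist1h2ac, 250 bases apart, moved apart. Hist1h2ac had 191, 248 and 211 counts (P1), 410.0, 538 and 544 (P7), 69.9, 48.7 and 52.1 (P14) and 38.0, 20.1 and 64.9 (P28). It fell by 3.11 on the log2 scale from P7 to P14 (adjusted p = 0.000175) and by 2.52 from P1 to P28 (adjusted p = 0.000589), while its neighbour rose in both. The log2 ratio of Hist1h2bc to Hist1h2ac was 1.13 ± 0.24 at P1 and 6.18 ± 0.93 at P28 (SD, n = 3).

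Hist1h2bg and Hist1h2ae, which face each other across the 175 bases printed above, also moved apart. Hist1h2ae had 105, 76.4 and 118 counts (P1), 215, 317 and 260.4 (P7), 40.2, 18.0 and 19.5 (P14) and 14.6, 21.2 and 32.5 (P28). It fell by 3.37 on the log2 scale from P7 to P14 (adjusted p = 0.000443) and by 2.13 from P1 to P28 (adjusted p = 0.00713). The log2 ratio of Hist1h2bg to Hist1h2ae went from 1.73 ± 0.53 at P1 to 5.23 ± 0.42 at P28. In the pair of Hist1h2bk and Hist1h2ah both genes were low at P28, and the ratio was 1.88 ± 0.21 at P1 and 1.93 ± 1.18 at P28.

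**Figure D4:**
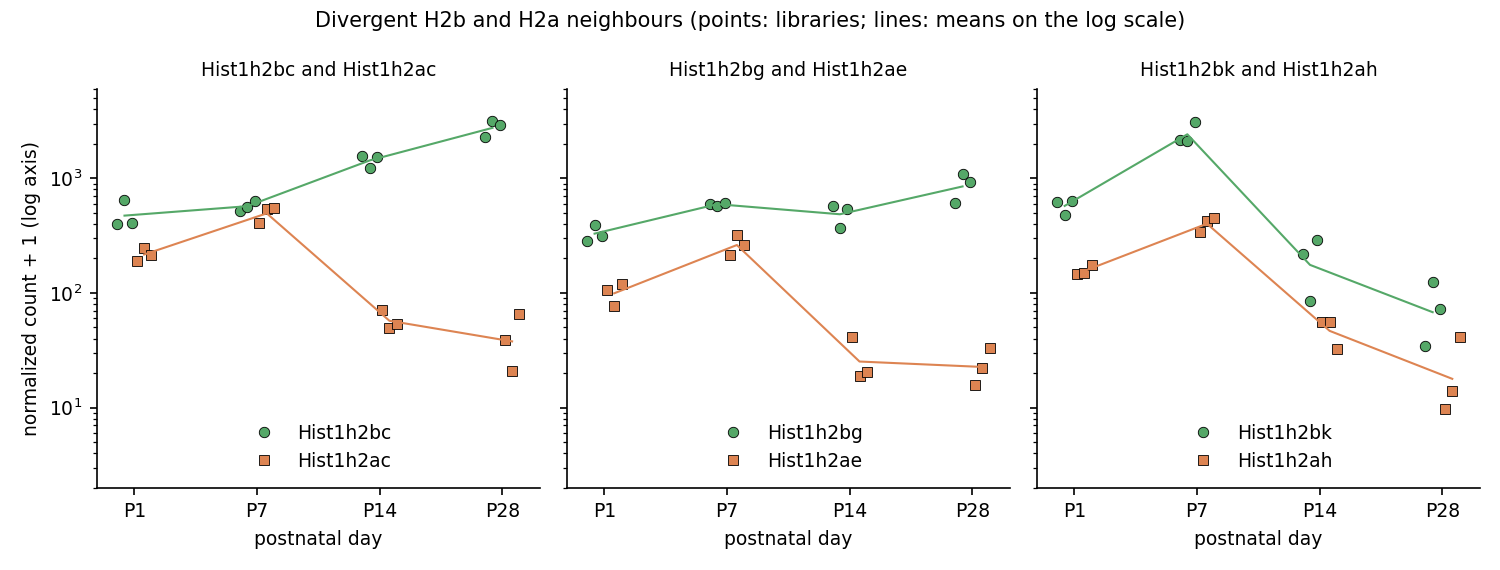
Normalized counts plus 1 (log axis) of 3 divergent pairs of an H2b gene (circles) and an H2a gene (squares) at the 4 ages, with the 3 libraries as points and lines through the means on the log scale. Hist1h2bc and Hist1h2bg are high at P28 while Hist1h2ac and Hist1h2ae are low, and Hist1h2bk and Hist1h2ah are both low.

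The end of the annotated transcript was compared with these changes as a description. Of the 37 tested members with the hairpin, the transcript ran over 100 bases past it in 19 and ended within 100 bases in 18, a limit set after the annotation had been seen. From P1 to P28 the median log2 fold change was -1.74 in the first class, with 9 lower and 1 higher call, and -2.93 in the second, with 13 and 0. Of all genes tested, 18.7% fell and 13.3% rose. The classes differed in their types, since all 3 tested H1 genes with a hairpin fell in the first. Within H2b the medians were -0.40 over 4 genes and -2.71 over 6, and within H4 -0.57 over 6 and -0.68 over 4. Hist1h2bg, whose transcript ran 155 bases past the hairpin, and Hist1h2be, with 1861 bases, were in the first H2b class, and Hist1h2bk, with 30 bases, and Hist1h2bb, with 23, in the second. The first also held Hist3h2ba, which was called lower (log2 fold change -2.35), and Hist1h2bh, with means of 86.0 counts at P1 and 37.7 at P28. In the second, 4 of 6 genes were called lower, while Hist1h2bj and Hist1h2bf had log2 fold changes of 0.04 and -0.78. Hist1h2bc and Hist2h2be were the tested genes whose annotated transcript had a longer end without a hairpin. Only annotated transcripts were searched, so a hairpin outside them, as in an intron, would be missed. Hist1h2bc rose. Hist2h2be, whose annotated end was 2192 bases long, had 123, 89, 88 and 87 counts as means of the 4 ages, and none of its comparisons passed the test.

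**Figure D5:**
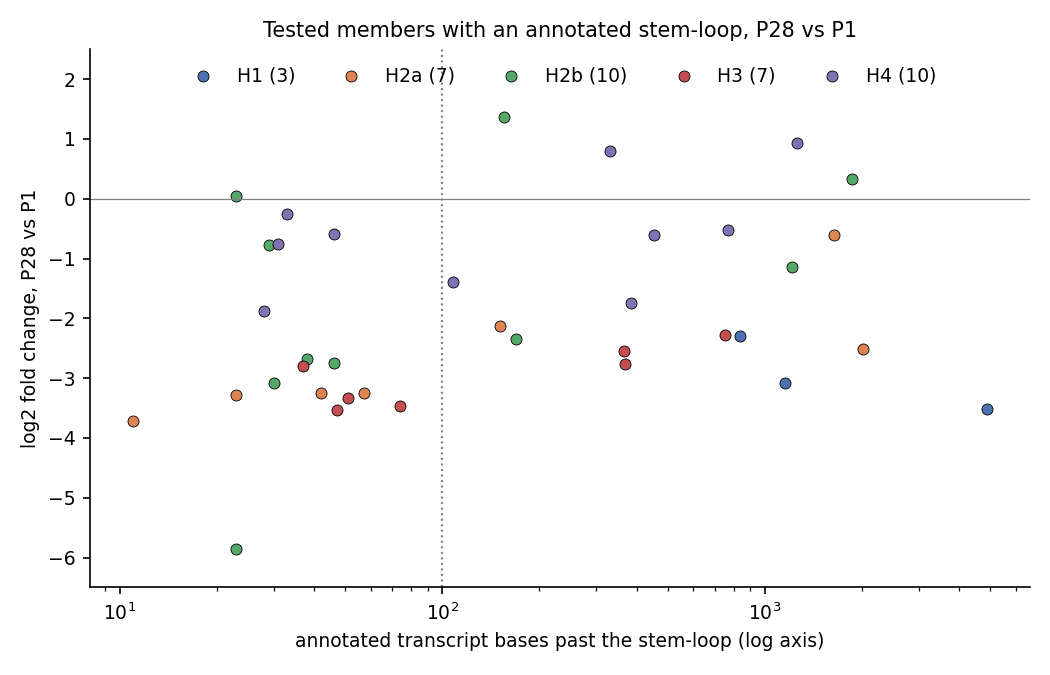
Log2 fold change from P1 to P28 (vertical axis) against the annotated transcript bases past the stem-loop (log axis) for the 37 tested members with a stem-loop, coloured by type with the number of genes in the key. The dotted line marks 100 bases. Members right of it had a median of -1.74 and those left of it one of -2.93.

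The octamer was set beside the change of the H2b genes. Of all genes tested, 13.3% rose and 18.7% fell from P1 to P28. For the 7 tested H2b genes with an octamer the median over these ages was -2.28, with 1 gene higher and 3 lower. For the 7 without it was -1.58, with 0 and 4. With 7 genes in each class, a single call says little. The split leaves out Hist1h2bc, Hist2h2be and Hist3h2bb-ps, which were among the 17 tested H2b genes but had no matched promoter. Hist1h2bc was the H2b gene with the largest rise, so the split does not cover both H2b genes that rose. Hist1h2bg, which rose, and Hist1h2bb, which fell, both had the octamer. Pou2f1, the gene of the octamer-binding factor OCT1, had 1132 ± 63.3 counts (P1), 1000 ± 51.6 (P7), 755 ± 170 (P14) and 1231 ± 352 (P28).

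Other genes of histone biology were taken as 4 lists. Of all genes tested, 3.1% rose and 3.91% fell from P1 to P7, and 10.0% rose and 8.79% fell from P7 to P14. From P14 to P28 it was 4.58% and 8.53%, and from P1 to P28 13.3% and 18.7%. Beside these shares, which hold for the marker lists below too, a single call says little about a list. The S-phase genes, which copy DNA or mark cycling cells, had 1 of 15 genes higher from P1 to P7, 13 lower from P7 to P14, 6 lower from P14 to P28 and 15 lower from P1 to P28, with medians of 0.27, -3.03, -0.83 and -3.60. Mki67, a proliferation marker, had 6704 ± 2394, 11544 ± 2031, 394 ± 160 and 19.7 ± 10.7 counts at the 4 ages, and it fell by 4.93 on the log2 scale from P7 to P14 (adjusted p = 1.16e-06) and by 8.41 from P1 to P28 (adjusted p = 2.33e-09). Top2a, the topoisomerase of dividing cells, was higher at P7 than P1 by 0.99 on the log2 scale (adjusted p = 0.03, but 0.168 with P7 replicate 2 left out) and fell by 4.497 to P14 (adjusted p = 1.23e-07). From P1 to P7 the median of the S-phase genes was 0.27 where that of the clustered histone genes was 1.14, side by side and with no test of the difference.

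The replacement histones are made outside S phase as well, mostly from polyadenylated messages. Of 11 genes, 1 rose from P1 to P7, 6 fell from P7 to P14, 1 fell from P14 to P28 and 7 fell from P1 to P28, with medians of 0.21, -1.06, -0.31 and -1.35. H2afz, which encodes the variant H2A.Z, fell by 2.05 on the log2 scale from P7 to P14 (adjusted p = 4.4e-06). H3f3a and H3f3b both encode H3.3. For H3f3a the rise between P1 and P7 was 0.83 (adjusted p = 0.00541), and its mean at P28 was 1665 ± 107 against 1778 ± 246 at P1. H3f3b fell by 1.72 from P1 to P28 (adjusted p = 1.09e-05). Cenpa, the centromere variant of H3, had 136 ± 45.6 counts at P1 and 0.974 ± 1.69 at P28.

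Of 15 tested genes for the synthesis and 3′ processing of histone mRNA, 0 changed from P1 to P7 (also 0 at an unadjusted p under 0.05 in limma), 4 fell from P7 to P14, 1 fell from P14 to P28 and 7 fell from P1 to P28, with medians of 0.05, -0.80, -0.29 and -0.46. Slbp, which encodes the stem-loop binding protein and was named after its values were seen, had 487, 425 and 563 counts (P1), 615, 569 and 571 (P7), 222, 236 and 376 (P14) and 330.3, 226 and 119.0 (P28). It fell by 1.11 on the log2 scale from P7 to P14 (adjusted p = 0.0305, up to 0.106 with single libraries left out). Npat, the coactivator of the histone loci, had means of 1085 ± 133, 1011 ± 46.5, 947 ± 286 and 805 ± 23.4, and none of its steps passed. Ccne1, which encodes cyclin E1, fell by 2.55 from P7 to P14 (adjusted p = 0.0253, up to 0.133 with single libraries left out). Zfp473, a zinc finger gene of the processing complex, fell by 2.64 after P14 (adjusted p = 0.0453, up to 0.135 with single libraries left out). Its fall rests on few reads, with 6.35, 19.0 and 5.43 counts at P14 and 2.92, 0 and 0 at P28. Of the 20 histone chaperones, 1 fell from P1 to P7 (Cabin1, of the H3.3 chaperone complex HIRA, log2 fold change -0.97, adjusted p = 0.0331, up to 0.174 with single libraries left out), 8 fell from P7 to P14, 1 rose and 1 fell from P14 to P28 and 9 fell from P1 to P28, with medians of 0.12, -0.93, 0.07 and -0.70. Chaf1b, a subunit of the chaperone CAF-1 that acts behind the replication fork, fell by 4.82 from P7 to P14 (adjusted p = 0.00102) and stood at 0 in the P28 libraries, at least 28.7-fold lower than in those of P1. Nap1l1, a carrier of H2A and H2B, fell by 1.28 (adjusted p = 0.0021) and Atrx, of the H3.3 pathway, by 0.92 (adjusted p = 0.000967) from P7 to P14. Anp32e, a chaperone of H2A.Z, rose by 1.08 after P14 (adjusted p = 0.0103), and Ipo4, a histone importer, fell by 0.87 (adjusted p = 0.0419, up to 0.109 with single libraries left out).

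The labelled cell type was checked against its markers. All 9 astrocyte markers were detected at every age, with a summed level of 52236 to 65911 normalized counts (P1), 26708 to 50187 (P7), 147184 to 186883 (P14) and 341747 to 400624 (P28), and 2 rose and 3 fell from P1 to P7, 7 rose from P7 to P14, 7 rose from P14 to P28, and 8 rose and 1 fell from P1 to P28. The glutamate transporters Slc1a3 and Slc1a2 rose by 2.54 and 2.45 on the log2 scale from P7 to P14 (adjusted p = 4.22e-06 and 2.45e-06). From P1 to P7 the log2 fold change was negative for 5 of the 9 markers and positive for 4. Aldh1l1, whose promoter drives the GFP, had 5008 ± 1320 counts (P1), 1470 ± 525 (P7), 1879 ± 86.1 (P14) and 2921 ± 446 (P28). It was the marker that fell from P1 to P28. The summed level of the 8 granule neuron lineage markers was 568 to 1483 (P1), 5557 to 9661 (P7), 7419 to 12590 (P14) and 3554 to 4107 (P28). Of them, 6 rose from P1 to P7, 4 fell from P14 to P28, and 4 rose and 3 fell from P1 to P28. Among the 6 were Cntn2 (3.76, adjusted p = 0.000129) and Rbfox3 (2.27, adjusted p = 0.000134). From P7 to P14, 2 rose and 2 fell. The precursor gene Atoh1 was at 0 in all P14 and P28 libraries, Nhlh1 in all P28 libraries and Gabra6, of mature granule neurons, in all P1 libraries. The P14 sum came mainly from genes of differentiating and mature neurons, with means of 2305 (Gabra6), 2272 (Neurod1) and 2428 (Rbfox3). The means at P7 and P14 were 36.4 and 0 for Atoh1 and 501 and 43.2 for Nhlh1, the 2 genes that fell (adjusted p = 0.00192 and 0.00464), at least 11.4-fold for Atoh1. They were 216 and 54.9 for Barhl1 and 1163 and 603 for Pax6, which did not pass the test (adjusted p = 0.0865 and 0.179). These genes were chosen after their values had been seen. Their part in the result was not tested.

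Markers of the oligodendrocyte lineage, 8 of 8 detected, summed to 7288 to 11384 (P1), 19377 to 28738 (P7), 262603 to 334584 (P14) and 88969 to 125317 (P28), and Mbp, a gene of myelin, rose by 3.64 on the log2 scale from P7 to P14 (adjusted p = 3.99e-06). Of the 8, 3 rose and 2 fell from P1 to P7, 5 rose and 1 fell from P7 to P14, 0 rose and 5 fell from P14 to P28, and 3 rose and 4 fell from P1 to P28. The 6 microglia markers summed to 501 to 1335 at P1 and to 1084 to 1623, 1905 to 3012 and 1485 to 1919 at the later ages, with P2ry12 alone higher from P1 to P7, from P7 to P14 and from P1 to P28. The 5 endothelial markers summed to 724 to 3254, 1486 to 8561, 3784 to 3941 and 2005 to 3132, with 1 gene lower from P14 to P28 and Flt1 higher from P1 to P28, and P1 replicate 2 and P7 replicate 2 held the most of their ages. The 4 Purkinje cell markers summed to 305 to 563, 225 to 276, 460 to 759 and 404 to 539, with 1 gene (Car8) lower from P1 to P7, 2 higher from P7 to P14, and 2 higher and 1 lower from P1 to P28. Of 7 red blood cell markers the 6 haemoglobin genes were listed at 0 in every library, and Alas2 passed no test. The part of these cells in the results was not tested.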

How the data were processed

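RNA of GFP-sorted cerebellar cells was sequenced in 12 libraries. Per the study's methods, reads were aligned to mm10 with STAR 2.5.0a and counted per gene on UCSC transcripts. The submitters' processing notes name FastQC 0.11.7, MultiQC 1.11 and DESeq2 1.30.1, while the methods give earlier versions of these 3 tools, and which made the files is not settled. The handling of strand and of reads shared by genes is not given in the sources used here. The deposited values are gene counts that the authors divided by one size factor per library with DESeq2 (a normalized signal, called normalized counts). Whole reads were recovered for 100% of values within a tolerance of 0.001, and totals per library follow from them.

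The 15464 genes that reached a value of 10 in 3 or more libraries were tested with limma 3.58.1 in R 4.3.3 on log2(value + 1), with one mean per age, all 12 libraries, a variance trend and Benjamini-Hochberg adjustment. Fold changes on this scale understate those of low genes. Calls needed an adjusted p under 0.05 and an absolute log2 fold change over 0.75. Size factors rest on most genes keeping their level, and depth sets the counting error of low members. Groups came from the sample titles, and each column was tied to its sample by the submitters' description, since all column names read P28. The genes named are every H1 member, the 3 most abundant members of each other type, the tested Hist3 and Hist4 members, the 2 largest calls of each direction and comparison, all calls of the less frequent direction of a comparison where they were 5 or fewer, and of each other list the 2 most abundant genes and, for the pathway lists, the largest rise and fall. Other lists were replacement histones, histone mRNA synthesis and 3′ processing (1 of 16 genes, Symplk, had no row), chaperones, S-phase genes and markers of 7 cell types, of which 1 gene is not reported here by name. The members and lists were chosen with earlier results of these data known. Alternatives were other pseudocounts (0.5 and 10), filters and scalings, edgeR 4.0.16 and DESeq2 1.42.0 on the recovered reads, only the ages compared, a replicate block, unadjusted p, no fold threshold, members with at least 50% of windows of their own, and each library left out. The script was tested on simulated data. Summaries and figures used Python 3.11.15, pandas 2.3.3 and matplotlib 3.10.9.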

Additional observations from a re-analysis of the deposited data

How the results depend on the processing

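The falls from P7 to P14 and from P1 to P28 kept their direction under every alternative run, while the counts for P7 with P1 and for P28 with P14 moved most. The number of members higher at P7 than at P1 (3) was 7 with a pseudocount of 10, 6 where every library held at least 10 reads, 5 with library totals alone, 6 in edgeR, 21 in DESeq2, 35 with only the ages compared, 22 at an unadjusted p and 1 among members with at least 50% of windows of their own. With at least 10 reads in every library, 23 members fell from P7 to P14, 4 fell and 1 rose from P14 to P28, and 17 fell from P1 to P28. Among members with at least 50% of windows of their own, 24 fell from P7 to P14 and 20 from P1 to P28. The number lower at P28 than at P14 (9) was 14 with library totals alone, 15 in DESeq2, 0 with only the ages compared and 18 at an unadjusted p. The number higher there (2) was 1 with a pseudocount of 10, with no filter, with TMM scaling and with only the ages compared, and 0 with library totals alone. With only the ages compared 21 members fell from P1 to P28. The cause of these shifts was not tested.

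With single libraries left out, the members that rose from P1 to P7 numbered 0 to 12, those that fell from P7 to P14 29 to 41, those that rose and fell from P14 to P28 1 to 4 and 3 to 13, and those that fell from P1 to P28 24 to 35. The 4 pathway lists together had 1 to 2 genes higher and 0 to 1 lower at P7 than at P1, 24 to 39 lower at P14 than at P7, 1 to 3 higher and 6 to 14 lower at P28 than at P14, and 31 to 38 lower at P28 than at P1. Type medians ranged from -1.64 to -0.62 (H2a), -0.94 to 0.11 (H2b), -1.86 to -0.78 (H3) and -0.46 to 0.09 (H4) for P28 with P14, from 0.029 to 0.39 for H1 at P7 with P1, and from -3.38 to -2.47 for H3 and -0.72 to -0.33 for H4 at P28 with P1. For the pathway lists, at least 10 reads in every library gave 1 gene higher at P7 than at P1, 1 lower at P28 than at P14 and 22 lower at P28 than at P1. Without a fold threshold 4 were higher at P7 than at P1 and 2 higher at P28 than at P14, where DESeq2 gave 2 higher, only the ages compared 0 higher and 3 lower, and an unadjusted p 5 higher and 16 lower.

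With at least 10 reads in every library the H1 median was -0.33 for P7 with P1 and -1.71 for P14 with P7, the H2a median -0.67 and the H2b median 0.27 for P28 with P14, and the H2b median -0.64 for P28 with P1. Library totals alone moved the median of all genes from -0.24 to -0.66 for P28 with P1, gave medians of -2.01 for H2b and -1.02 for H4 there, turned the log2 fold change of Hist1h2be, not called, to -0.10, and gave sums of 2619 (H2a, P1), 6355 (H2a, P7), 1868 (H4, P1) and 14540 (all members, P1). The labels do not say whether replicate numbers pair libraries across ages. Correlations of same-numbered libraries, each gene taken as its deviation from the mean of its age, ran from -0.03 to 0.14. Such low values do not settle whether the libraries were paired. With the replicate block 4, 1, 1 and 2 members rose and 0, 37, 7 and 34 fell in the 4 comparisons, and 5, 4, 4 and 5 of 6 libraries correlated best with their own number, a hint from the data and not the design.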
